A study of Mus musculus with 8 samples.

Results

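The collagen chain genes of the fetal mouse lung were followed through 4 control lungs and 4 lungs after tracheal occlusion (TO). They were taken as the protein-coding genes whose symbol is Col, a number, the letter a and a number, which gave 44 of the 55385 genes counted. By the kind of collagen they build, 11 are chains of fibrils, 8 belong to basement membranes and 25 were kept as other chains. Both groups were whole lungs of C57BL/6 fetuses at E18.5 with no transgene or deleted gene. In the TO fetuses a suture passed through the uterine wall had closed the trachea at E16.5, so that the liquid the lung secretes stayed in the airways. The same suture tied 1 carotid artery and 1 jugular vein, so the model is not an airway closure alone, and the dams received progesterone. The methods do not say whether control fetuses had surgery, and the labels do not say which lungs came from 1 litter.

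Every collagen is a triple helix of chains, and the gene families follow the assemblies. Fibrillar chains, chiefly types I, III and V, form the cables that carry tension in the lung interstitium, and are made mostly by fibroblasts. Type IV chains form the sheet-like network on which epithelium and endothelium rest, and types XV and XVIII sit in the same membranes and carry fragments (endostatin in type XVIII) that can be released. Type VI forms beaded filaments around cells, fibril-associated chains coat fibrils, and a few members span the cell membrane.

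In the study's own mRNA-seq comparison 6 of the lungs are named, control 1, 2 and 4 and TO 2, 3 and 4. Values for these are given first and those of control 3 and TO 1 beside them. TO 1 had 270078 read pairs on genes and the other 7 libraries had 22822261 to 35002061, so a gene with no read in TO 1 may still lie at up to 10.3 CPM (a gene's read pairs relative to all pairs on genes, with library sizes scaled by the TMM method). The submitters' specimen names end in 1 of 3 codes. Code 3482 is carried by control 1, control 4, TO 1 and TO 4, code 3573 by control 2 and TO 2, and code 3604 by control 3 and TO 3. No source used here says what a code stands for. Over all genes, the deviations of a control and a TO lung from their group means were correlated at 0.0221 to 0.157 in the 6 pairs that share a code and at -0.164 to 0.00452 in the 10 pairs that do not, as a description. For the collagen chains described by library, differences on the log2 scale are therefore given also between lungs of the same code. With the code as a block in the 6 libraries, TO 3 has no control of its code and adds nothing to the estimate, which then rests on TO 2 and TO 4 against the 3 controls, with 2 residual degrees of freedom. Lung markers were high in every library, with Sftpc (surfactant protein C) between 4431 CPM in TO 1 and 12792 CPM. TO 1 was also lowest in the sums of 7 fibroblast, 5 endothelial and 5 epithelial markers, at 1384, 1129 and 5285 CPM. The other libraries had 2084 to 3484, 1343 to 2056 and 6856 to 14073 CPM. The part of these markers in the collagen values of TO 1 was not tested. In TO 1 the 4 skeletal muscle markers (Myh3, Myh8, Ckm and Acta1) summed to 2348 CPM, against 12.2 to 275 elsewhere, and the 3 ventricular markers to 3002 CPM, against 76.4 to 2262. Samples are bulk lung, so fewer cells of a type and less RNA per cell cannot be told apart.

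With the 6 libraries or with all 8, no collagen chain gene passed an adjusted p of 0.1 between TO and control lungs by edgeR, DESeq2 or limma-voom. Among the alternatives, Col15a1 passed with the replicate number as a block in the 6 libraries (adjusted p = 0.0895 by edgeR), and Col15a1 and Col18a1 passed without TO 4 (adjusted p = 0.05045 and 0.062 by edgeR). These 2 fits called 1.0% and 0.692% of all genes. Over the 6 libraries 43 of the 44 members had enough reads to be tested, at least 5 in 3 or more libraries. The exception was Col19a1, with 5 reads or fewer in each library. The quasi-likelihood test of edgeR called 0 of the 43, and 0.0% of all 21859 genes tested, and the smallest adjusted p of a member was 0.907. At an unadjusted p under 0.05 there were 2 members (4.65%), against 5.14% of all genes. Of these Col24a1 was higher in TO, as were 3.07% of all genes, and Col15a1 was lower, as were 2.07%. The TO and control libraries did not overlap for 1 member (2.33%), Col24a1, against 10.9% of all genes (5.09% with TO higher and 5.81% with TO lower). DESeq2 called 0 members and 0.201% of all genes, and put 4 members (Col5a3, Col15a1, Col18a1 and Col24a1) at an unadjusted p under 0.05 against 6.11%. With limma-voom 0 members and 0.0% of all genes were called, and 3 members (Col15a1, Col18a1 and Col24a1) were at an unadjusted p under 0.05 against 6.23%. With all 8 libraries edgeR called 0 members and 0.0% of all genes, and DESeq2 called 0 members and 0.031%. Col2a1 and Col24a1 were then higher at an unadjusted p under 0.05 by edgeR, beside 1.43% of all genes, and Col15a1 lower, beside 0.918% (2.35% in both directions). Of the 43 members, 0 were then without overlap, against 2.0% of all genes (0.71% higher and 1.3% lower).

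Collagen transcripts were abundant and took almost the same share of the RNA in both groups. They held 1.75% ± 0.0996 of the read pairs on genes in control lungs and 1.80% ± 0.00615 in TO lungs (SD, n = 3 each). By library the share was 1.74%, 1.65% and 1.85% in control 1, 2 and 4, and 1.80%, 1.81% and 1.81% in TO 2, 3 and 4. Control 3 lay at 1.86% and TO 1 at 2.14%. Fibrillar chains held 0.710% ± 0.0689 in control and 0.731% ± 0.0960 in TO lungs, basement membrane chains 0.561% ± 0.0328 and 0.574% ± 0.0367, and other chains 0.478% ± 0.0109 and 0.50% ± 0.0595. The groups overlapped in all 3 classes. TO 1 stood apart in how the share was divided, with 1.32% on fibrillar chains against 0.617% to 0.841% in the other 7 libraries, and 0.432% on basement membrane chains against 0.526% to 0.734%.

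**Figure D1:**
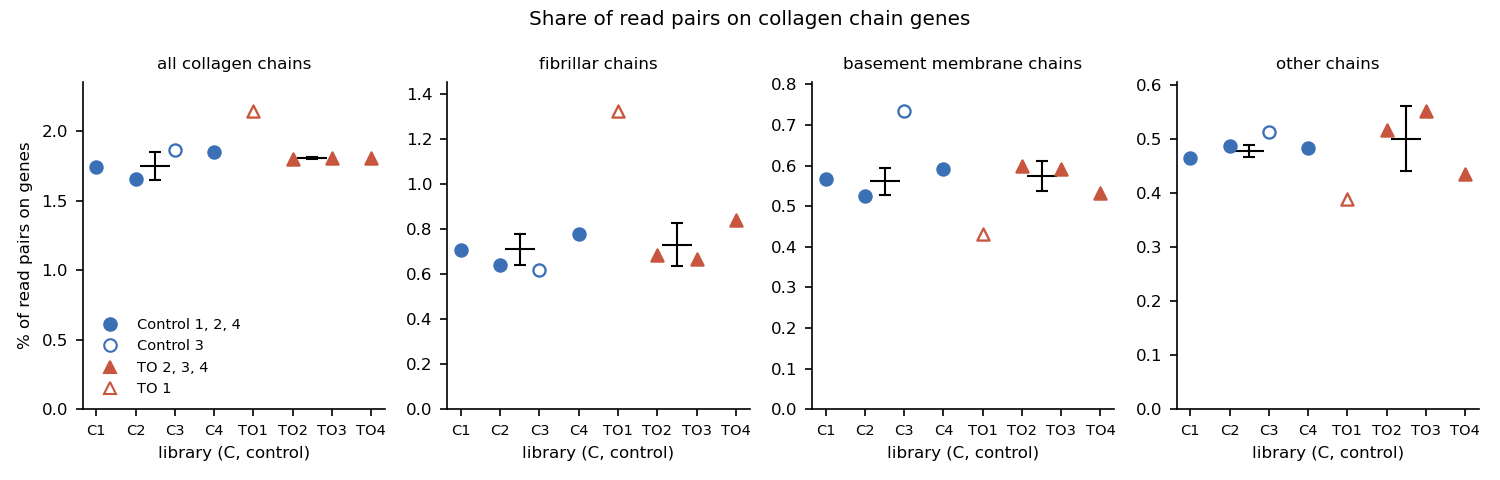
Percent of read pairs on genes (y axis) held by all collagen chains and by each class in each library (x axis, C for control). Circles are control and triangles TO libraries, open for control 3 and TO 1, and black bars give the mean and SD of the 3 filled points of a group. The filled points of the groups overlap in every class, for the sum of all chains with the 3 TO points inside the range of the controls, and TO 1 is highest for fibrillar chains at 1.32%.

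Expression was uneven among the chains. On average over the 6 libraries 8 members were above 1000 CPM and together held 81.1% of the collagen CPM, 13 were at 100 to 1000 CPM, 14 at 10 to 100 CPM and 9 under 10 CPM. Per kilobase of exon, which allows genes to be compared, Col4a1 was highest at 404 CPM per kb, followed by Col1a1 at 295, Col6a1 at 282, Col3a1 at 244, Col4a2 at 227, Col6a2 at 166, Col1a2 at 147 and Col6a3 at 90.4. With the longest coding transcript as the length, Col4a1 stayed first and Col3a1, Col1a2 and Col1a1 came next, so the order among the type I, III and VI chains depends on the length used. The median log2 fold change of the 43 members was 0.09 in TO against control, beside -0.0045 for all genes tested, and the value was above 0 for 26 of them, against 49.3% of all genes. For 37 of them (86.0%) it lay within 0.5 of 0, against 74.0% of all genes. At 100 CPM or more, 19 of 21 members and 2387 of 2455 genes lay within 0.5. With all 8 libraries the log2 fold change was above 0 for 28 members, against 46.8% of all genes, and within 0.5 for 35, against 75.4%.

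**Figure D2:**
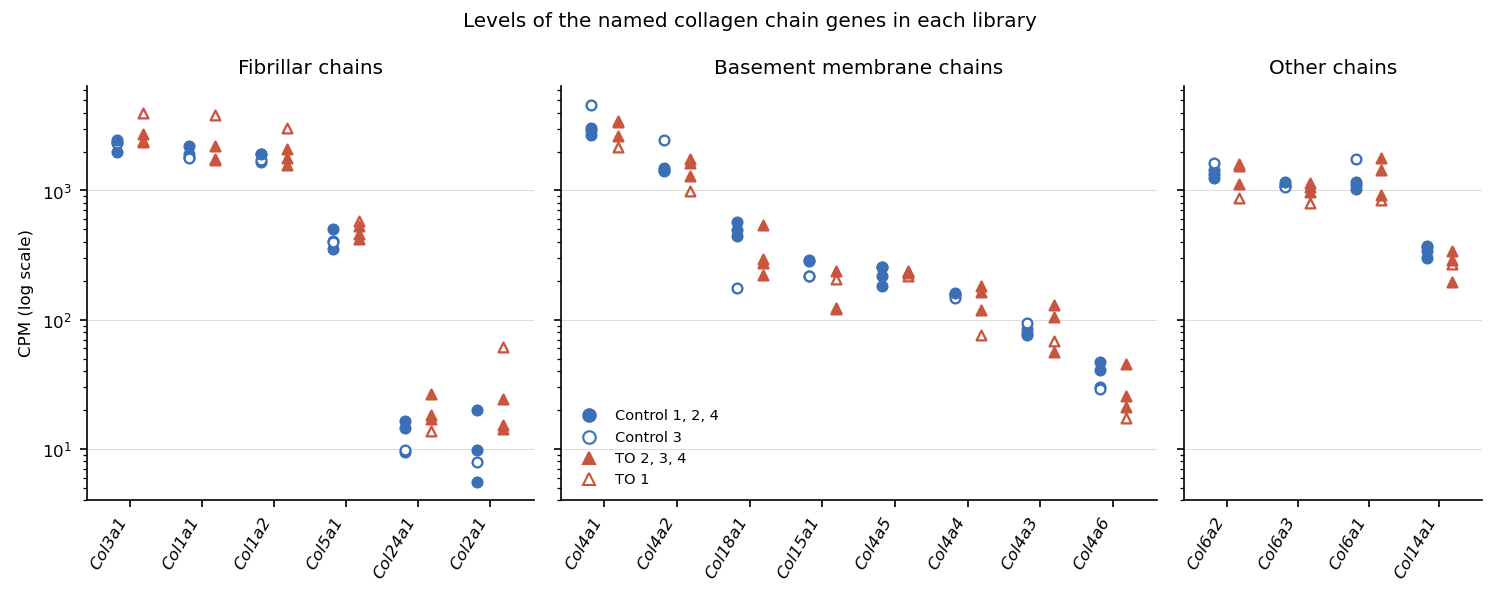
CPM on a log scale (y axis) of the 18 named chains in each library, by class. Circles are control and triangles TO libraries, open for control 3 and TO 1. Within a gene the filled points of the groups mostly overlap, the open triangle of TO 1 is the top point for Col3a1, Col1a1 and Col1a2, and the open circle of control 3 is the top point for Col4a1 and Col4a2.

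Among the fibrillar chains, those of types I and III, the main fibril formers, overlapped between the groups. Col1a1 (chr11:94936224-94953042, GRCm38) had 1808, 1901 and 2206 CPM in control 1, 2 and 4, and 1757, 1731 and 2197 CPM in TO 2, 3 and 4. Col1a2 (chr6:4504814-4541544) had 1911, 1664 and 1927 CPM in the controls and 1784, 1582 and 2078 CPM in TO. The ranges overlap for both, with a log2 fold change of -0.06 (95% interval -0.38 to 0.26) for Col1a1 and -0.02 (-0.33 to 0.30) for Col1a2. Control 3 lay at 1783 and 1709 CPM for these chains, and TO 1 above all others at 3842 and 3033 CPM, which turns the log2 fold changes of all 8 libraries to 0.30 and 0.23. Within the codes the differences of TO 2, 3 and 4 were -0.11, -0.04 and 0.14 for Col1a1, and 0.10, -0.11 and 0.11 for Col1a2.

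Col3a1 (chr1:45311538-45349706), whose product co-assembles with type I in compliant tissues, had 2386, 1972 and 2472 CPM in the controls and 2383, 2404 and 2757 CPM in TO. Control 3 had 2323 and TO 1 had 4001 CPM. The log2 fold change was 0.14 (-0.16 to 0.44). Between lungs of the same code TO 2 was 0.27 above control 2 on the log2 scale, TO 3 0.05 above control 3 and TO 4 0.18 above the mean of control 1 and control 4. Col5a1 (chr2:27886425-28039514), the type V chain that starts fibrils and limits their width, had 406, 354 and 508 CPM in the controls and 422, 459 and 527 CPM in TO, with 402 in control 3 and 585 in TO 1. Its groups overlap, and within the codes the differences of TO 2, 3 and 4 were 0.25, 0.19 and 0.21.

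The promoter of Col3a1 is shown because it is the most abundant fibrillar chain with an exon-free window and holds TATAAA, the core of the TATA box. These bases lie near the middle of the window and not close to the start, and whether they act as a TATA box was not tested. The 250 bases before its start (chr1:45311288-45311537, plus strand, RefSeq windows on GRCm38.p6) read as follows, with TATAAA in capitals.
Col3a1: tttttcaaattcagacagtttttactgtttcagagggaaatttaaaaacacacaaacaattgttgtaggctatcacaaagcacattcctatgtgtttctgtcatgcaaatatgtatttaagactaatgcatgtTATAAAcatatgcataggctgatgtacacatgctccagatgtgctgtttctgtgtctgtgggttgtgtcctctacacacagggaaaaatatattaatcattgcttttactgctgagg
TATAAA, searched on both strands, lies in 12.4% of the 32851 promoter windows and in 5 of the 38 windows of the 35 matched members (Col3a1, Col10a1, Col11a2, Col13a1 and Col17a1).

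The scarcer fibrillar chains differed more, from low levels. Col24a1 (chr3:145292472-145552011), a minor chain found with type I fibrils, had 9.50, 14.5 and 16.5 CPM in control 1, 2 and 4, and 26.7, 18.3 and 17.1 CPM in TO 2, 3 and 4. The 3 TO values lie above the 3 controls, by 0.61 on the log2 scale (SE 0.25, unadjusted p = 0.038, adjusted p = 0.907 by edgeR). Control 3 had 9.88 CPM, and TO 1 had 13.8 CPM from 4 read pairs (exact Poisson 95% interval 3.75 to 35.3, counting error only), so the 8 libraries overlap. Within the codes TO was higher by 0.87 for TO 2, 0.89 for TO 3 and 0.45 for TO 4. The unadjusted p rose above 0.05 without control 1 (0.126), control 2 (0.0619) or TO 2 (0.171), and the change was then 0.42, 0.67 and 0.39.

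Col2a1 (chr15:97975602-98004695), the main chain of cartilage, had 9.77, 5.59 and 19.9 CPM in the controls and 24.5, 15.4 and 14.2 CPM in TO. Control 3 had 7.97 CPM and TO 1 was highest at 62.0 CPM, from 18 read pairs. The log2 fold change was 0.61 in the 6 libraries (SE 0.42, unadjusted p = 0.177 by edgeR) and 1.07 in all 8 (SE 0.47, unadjusted p = 0.0435, adjusted p = 1), and 0.74 (unadjusted p = 0.091) without TO 1. Within the codes TO 2 was higher by 2.12, TO 3 by 0.94 and TO 4 by 0.028. Markers of cartilage other than collagens (8 genes, of which Ucma had no read) summed to 222, 280 and 203 CPM in control 1, 2 and 4, and 258, 210 and 158 CPM in TO 2, 3 and 4, with 115 in control 3 and 107 in TO 1. Matn4 and Hapln1 made up most of each sum, and 4 of the 8 genes were higher on average in TO 2, 3 and 4. Acan, 1 of these 4, had 1.23, 0.325 and 8.27 CPM in control 1, 2 and 4. It had 5.01, 7.84 and 6.22 CPM in TO 2, 3 and 4, with 7.39 in control 3 and 3.44 (1 read pair) in TO 1. Bone markers (4 genes, led by Ibsp, bone sialoprotein) summed to 10.2, 6.98 and 8.80 CPM in those controls, 22.4, 1.07 and 13.1 CPM in those TO lungs, 0.202 in control 3 and 72.3 in TO 1. Their part in the fibrillar values was not tested.

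Set against lungs of the same code, fibrillar chains leaned one way. In TO 2, TO 3 and TO 4 alike, with control 3 as the control of TO 3, 6 of the 11 were higher than in the controls of the same code (Col2a1, Col3a1, Col5a1, Col5a3, Col11a1 and Col24a1) and 0 were lower, beside 12.6% and 11.5% of all genes tested. Basement membrane chains gave 0 of 8 higher and 1 lower, and other chains 6 of 24 higher and 1 lower. For TO 2 and TO 3 the comparison is with 1 control lung each. Of the deep libraries control 2 was the lowest for 5 of the 11 fibrillar chains, against 14.4% of all genes, and control 3 for 3, against 22.9%. With the code as a block in edgeR, a choice made after the data were seen, 5 fibrillar chains had an unadjusted p under 0.05 in the 6 libraries, where TO 3 does not count, and all were higher in TO, beside 3.78% of all genes. Of all 43 members 7 passed this mark against 6.29% of all genes, and 1 of them, Col15a1, was lower, beside 2.51%. The 5 fibrillar chains were Col3a1, Col5a2, Col5a3, Col11a1 and Col24a1, with log2 fold changes of 0.23, 0.23, 0.58, 0.49 and 0.61. Without TO 1 but with control 3 there were 4 (Col2a1, Col5a3, Col11a1 and Col24a1) beside 2.59%, of 5 members in all against 4.37%, with 1 lower beside 1.77%. With all 8 libraries there were 7 (the exceptions being Col1a1, Col1a2, Col5a2 and Col27a1) beside 3.08%, of 10 members in all against 5.11%, with 2 lower (Col14a1 and Col15a1) beside 2.03%. No member reached an adjusted p under 0.1 in any of these 3 fits, which called 0.0%, 0.00444% and 0.0% of all genes, and the lowest adjusted p of a fibrillar chain was 0.693 in the first. The median log2 fold change of the fibrillar chains was 0.23 with the block and 0.17 without it in the 6 libraries, 0.22 and 0.17 in all but TO 1, and 0.32 and 0.33 in all 8. With no block and control 2 left out of the 6 libraries it was 0.053, with 0 fibrillar chains at an unadjusted p under 0.05 by edgeR.

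Of these, Col5a3, Col5a2 and Col11a1 are described because of their values. Col5a3, a minor type V chain, had 11.9, 7.15 and 10.01 CPM in control 1, 2 and 4, 9.87, 15.9 and 17.2 CPM in TO 2, 3 and 4, 13.9 in control 3 and 51.6 in TO 1. Col11a1, which joins type II fibrils in cartilage, had 18.8, 10.98 and 20.7 CPM in the controls and 17.6, 17.4 and 24.8 CPM in TO, with 9.98 in control 3 and 58.5 in TO 1. The ranges of the groups overlap for both genes. For Col5a3 TO 2 lies below control 1 and control 4, and for Col11a1 TO 2 and TO 3 do. Col5a2, the partner of Col5a1, had 372, 312 and 378 CPM in the controls, 375, 394 and 428 CPM in TO, 396 in control 3 and 527 in TO 1. For the remaining fibrillar chains the log2 fold change was 0.23 (Col11a2) and -0.30 (Col27a1).

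**Figure D3:**
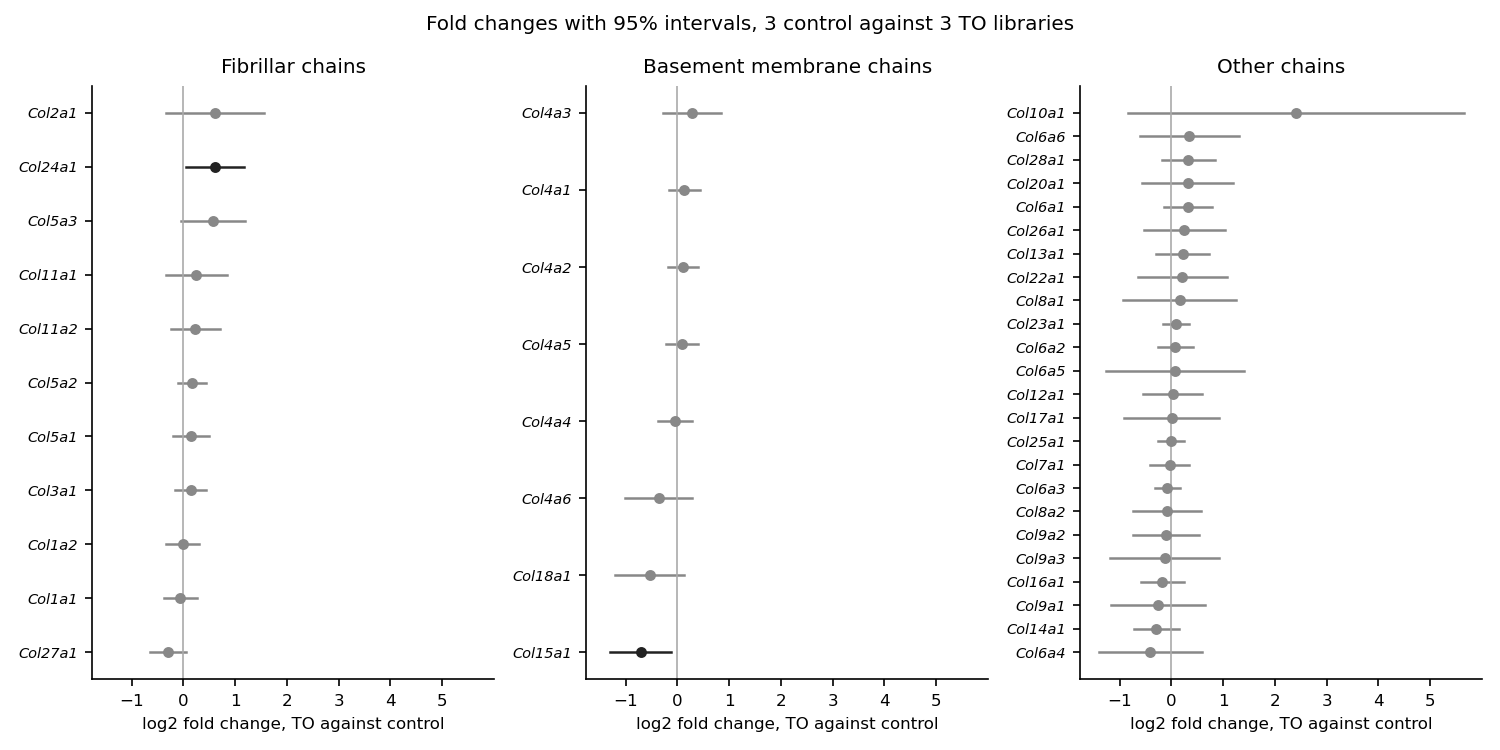
Log2 fold change of TO against control (x axis) for the 43 chains tested in the 6 libraries, by class, with 95% intervals of the edgeR fit. Black marks Col24a1 and Col15a1, with an unadjusted p under 0.05, and the interval of every other chain includes 0.

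The type IV genes lie in head-to-head pairs, and the abundant pair overlapped between the groups. Col4a1 (chr8:11198423-11312826, minus strand) and Col4a2 (chr8:11312805-11449287, plus strand), the chains of the common network, share 22 bases at their starts. Col4a1 had 2915, 2683 and 3032 CPM in control 1, 2 and 4, and 3362, 3469.5 and 2652 CPM in TO 2, 3 and 4. Col4a2 had 1410, 1452 and 1487 CPM in the controls and 1740, 1638 and 1297 CPM in TO. TO 2 and TO 3 lie above the controls and TO 4 below them for both chains, and the log2 fold changes were 0.13 (-0.16 to 0.43) and 0.10 (-0.19 to 0.39). Control 3 was highest, at 4596 and 2473 CPM, and TO 1 lowest, at 2152 and 985 CPM. With these 2 libraries the signs turn, to -0.18 and -0.26. Within the codes TO 2 was higher, by 0.33 for Col4a1 and 0.26 for Col4a2, while TO 3 differed by -0.41 and -0.59 and TO 4 by -0.16 and -0.16. Col4a1 to Col4a2 was one of the steadiest ratios, between 1.85 and 2.12 in the 7 deep libraries and 2.19 in TO 1.

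The second pair, Col4a4 (chr1:82448423-82586849, minus strand) and Col4a3 (chr1:82586921-82722059, plus strand), belongs to the network of the alveolar and glomerular basement membranes. Their starts are 71 bases apart, and that shared space (chr1:82586850-82586920, GRCm38.p6, read on the strand of Col4a4) is printed because it is all the sequence between the genes.
Col4a4 to Col4a3: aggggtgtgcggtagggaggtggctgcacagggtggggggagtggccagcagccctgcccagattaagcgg
On neither strand does it hold TATAAA, the core of the TATA box, a CCAAT box (CCAAT) or the GC box motif GGGCGG. Col4a4 had 157, 156 and 162 CPM in the controls and 181, 162 and 118 CPM in TO, and Col4a3 had 76.3, 84.1 and 79.1 CPM in the controls and 131, 104 and 56.5 CPM in TO. The 3 controls lie close together for both genes, while TO 4 is the lowest and TO 2 the highest of the 6. Control 3 had 146 and 95.1 CPM, and TO 1 75.7 and 68.9 CPM, from 22 and 20 read pairs. The log2 fold changes were -0.05 (-0.38 to 0.29) for Col4a4 and 0.28 (-0.28 to 0.84) for Col4a3. Against the controls of the same code TO 2 and TO 3 were higher, by 0.21 and 0.15 for Col4a4 and by 0.64 and 0.13 for Col4a3, and TO 4 differed by -0.43 and -0.46. About 12.3% of the read pairs of Col4a3 also fit a gene on the other strand and were not counted.

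In the third pair, on chrX, the starts of Col4a6 (141165403-141474076, minus strand) and Col4a5 (141475385-141689234, plus strand) are 1308 bases apart. Col4a5 had 219, 184 and 258 CPM in the controls and 231, 235 and 239 CPM in TO, with 254 in control 3 and 217 in TO 1. Col4a6, a chain of airway and smooth muscle basement membranes, had 40.7, 30.3 and 46.9 CPM in the controls and 21.0, 25.7 and 45.2 CPM in TO, with 29.1 in control 3 and 17.2 in TO 1. This was the least steady pair: Col4a5 to Col4a6 ranged from 5.29 to 10.99 in the 6 libraries, with 5.38, 6.06 and 5.496 in the controls and 10.99, 9.13 and 5.29 in TO 2, 3 and 4. TO 2 and TO 3 lie above every one of these controls, TO 4 below, and control 3 reached 8.73. The log2 fold changes were 0.09 (-0.21 to 0.40) for Col4a5 and -0.36 (-1.003 to 0.29) for Col4a6. Within the codes TO 2, 3 and 4 differed by 0.33, -0.11 and 0.0089 for Col4a5, and by -0.52, -0.18 and 0.05 for Col4a6.

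Of the collagens that decorate basement membranes, Col15a1 had the lowest unadjusted p of any member. Col15a1 (chr4:47208161-47313167), which links fibrils to basement membranes of vessels and muscle, had 287, 218 and 283 CPM in control 1, 2 and 4, and 121, 123 and 237 CPM in TO 2, 3 and 4. TO 2 and TO 3 lie below every control, and TO 4 lies between control 2 and control 4. Control 3 had 220 and TO 1 had 207 CPM, from 60 read pairs. The log2 fold change was -0.71 (95% interval -1.30 to -0.12, unadjusted p = 0.0231, adjusted p = 0.907 by edgeR). TO 2, TO 3 and TO 4 were each below the controls of their own code on the log2 scale, as for 11.5% of all genes tested. The differences were -0.85 for TO 2, -0.83 for TO 3 and -0.27 for TO 4. TO 1 differed by -0.47, in a library where the median of all genes tested was -0.51 against the mean of the 6 libraries. With the code as a block the change was -0.50 in the 6 libraries, from TO 2 and TO 4 only (unadjusted p = 0.00501, adjusted p = 0.671 by edgeR). It was -0.61 with control 3 added, which brings TO 3 in (unadjusted p = 0.000967, adjusted p = 0.819 by edgeR), and -0.60 in all 8 (unadjusted p = 0.000432, adjusted p = 0.512 by edgeR). The unadjusted p without the block rose above 0.05 without control 1 (0.0646), control 4 (0.0549), TO 2 (0.0843) or TO 3 (0.0768), with changes of -0.64, -0.65, -0.54 and -0.54. Without TO 4 the change was -1.10 and the adjusted p 0.05045.

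Col18a1 (chr10:77052178-77166548), the endostatin precursor of epithelial and endothelial basement membranes, had 567, 448 and 493 CPM in the same controls and 275, 221 and 543 CPM in TO 2, 3 and 4. TO 2 and TO 3 lie below these controls and TO 4 among them, with a log2 fold change of -0.53 (-1.20 to 0.14, unadjusted p = 0.105 by edgeR). Control 3 was the lowest of all lungs at 175 CPM and TO 1 had 293 CPM. Against the controls of the same code the differences were -0.71 for TO 2, 0.34 for TO 3, 0.04 for TO 4 and -0.85 for TO 1, so the direction does not hold within codes. With the code as a block the change was -0.27 (unadjusted p = 0.127) in the 6 libraries, from TO 2 and TO 4 only, -0.09 (unadjusted p = 0.583) with control 3 added, and -0.24 (unadjusted p = 0.23) in all 8. Without TO 4 it was -1.02, with an adjusted p of 0.062, and that fit called 0.692% of all genes, Col15a1 and Col18a1 among them, and put 10 members at an unadjusted p under 0.05 against 10.7% of all genes.

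The 6 markers of dividing cells (Mki67, Top2a, Cdk1, Ccnb1, Birc5 and Foxm1) moved with Col18a1 in the 7 deep libraries. They summed to 1433, 1113 and 1162 CPM in control 1, 2 and 4, 708, 330 and 1164 CPM in TO 2, 3 and 4, and 383 CPM in control 3, so that the 3 lungs lowest in Col18a1 were the 3 lowest in these markers. TO 1 was high in the markers, at 1350 CPM, with Col18a1 at 293 CPM. Endothelial markers (Pecam1, Cdh5, Kdr, Tie1 and Emcn) summed to 1586 to 1770 CPM in control 1, 2 and 4, 1343 to 2010 CPM in TO 2, 3 and 4, 2056 in control 3 and 1129 in TO 1. TO 2, with 121 CPM of Col15a1, was the second highest of all lungs in the endothelial sum, at 2010 CPM. TO 3, with 123 CPM of Col15a1, was the lowest of the 7 deep libraries in that sum, at 1343 CPM. The part of either marker list in these values was not tested. Col15a1 to Col18a1 lay between 0.437 and 0.574 in the 6 libraries and at 1.26 in control 3.

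**Figure D4:**
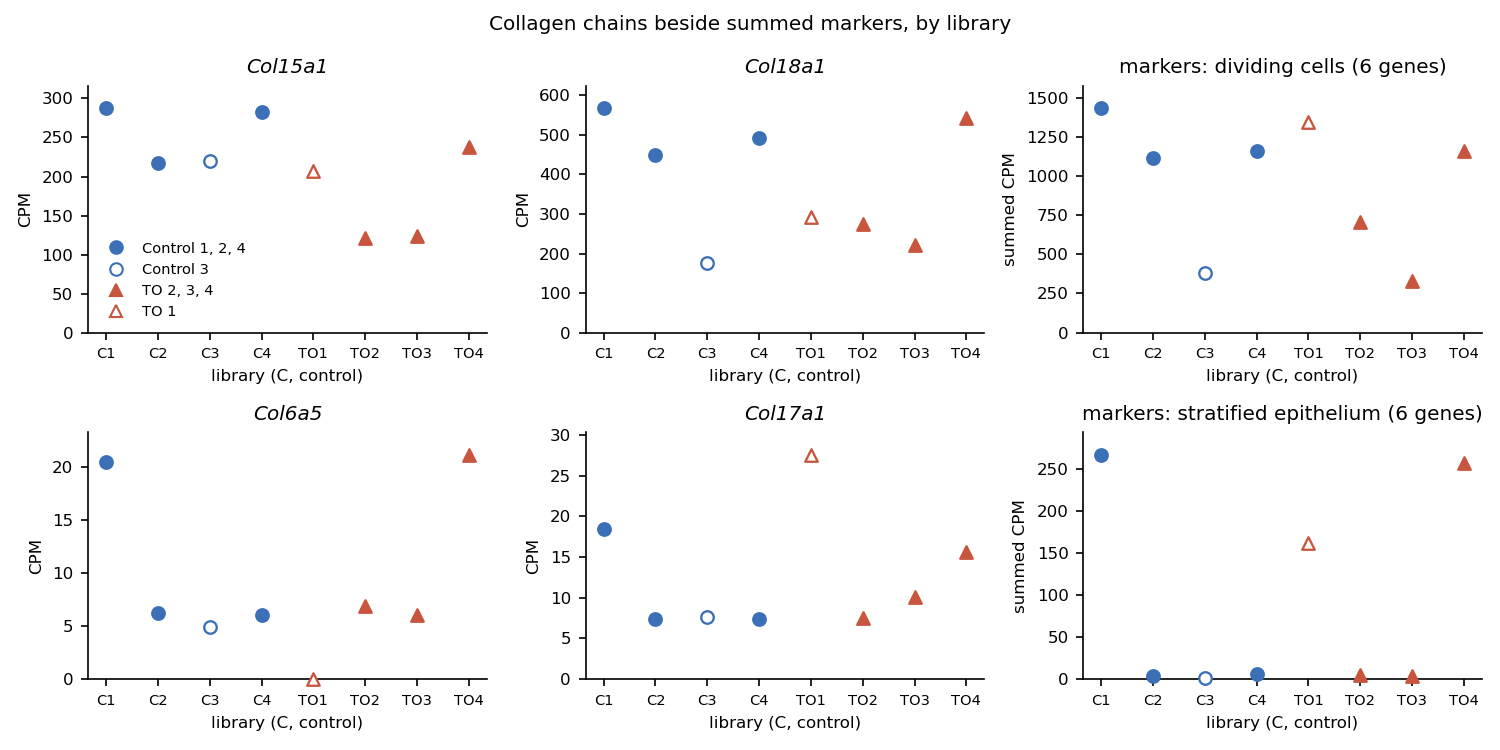
CPM of Col15a1, Col18a1, Col6a5 and Col17a1, and the summed CPM of 6 dividing-cell and 6 stratified-epithelium markers, in each library (C for control). Circles are control and triangles TO libraries, open for control 3 and TO 1. Col18a1 and the dividing-cell markers are both low in control 3, TO 2 and TO 3, and Col6a5 and the stratified markers are both high in control 1 and TO 4.

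The windows upstream of the chains above with an unadjusted p under 0.05, Col15a1 and Col24a1, and of Col18a1 are shown for comparison. Those of Col15a1 (chr4:47207762-47208011, plus strand) and Col24a1 (chr3:145292222-145292471, plus strand) are 250 bases. That of Col18a1 (chr10:77166549-77166780, minus strand) is the 232 bases that hold no annotated exon, before the farther upstream of its 2 listed starts. Capitals mark GGGCGG and CCAAT in either orientation.
Col15a1: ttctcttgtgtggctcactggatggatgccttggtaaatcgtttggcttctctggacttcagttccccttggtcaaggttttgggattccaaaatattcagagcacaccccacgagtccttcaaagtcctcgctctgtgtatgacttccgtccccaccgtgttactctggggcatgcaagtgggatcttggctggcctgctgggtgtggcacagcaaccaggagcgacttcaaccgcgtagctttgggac
Col24a1: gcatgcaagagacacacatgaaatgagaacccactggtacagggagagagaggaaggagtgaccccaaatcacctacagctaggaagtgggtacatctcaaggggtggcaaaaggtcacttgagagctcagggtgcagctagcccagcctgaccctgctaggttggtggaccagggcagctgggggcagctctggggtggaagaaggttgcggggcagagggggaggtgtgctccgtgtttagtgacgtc
Col18a1: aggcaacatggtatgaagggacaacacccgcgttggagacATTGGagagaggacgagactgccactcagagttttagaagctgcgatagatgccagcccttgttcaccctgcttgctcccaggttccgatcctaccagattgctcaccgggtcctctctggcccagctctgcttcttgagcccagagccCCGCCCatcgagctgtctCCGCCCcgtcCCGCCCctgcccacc
The windows of Col15a1 and Col24a1 hold none of the 3 motifs and that of Col18a1 holds CCAAT 1 time and GGGCGG 3 times. Over all 32851 windows CCAAT lies in 33.8% and GGGCGG in 32.7%, and in 13 and 22 of the 38 windows of the 35 matched members. Windows of members were richer in GC, with a median of 59% against 52.4% over all windows. The part of GC content in these counts was not tested.

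Among the other chains, type VI carried most of the reads, with 3 abundant chains that assemble together. Col6a1 (chr10:76708792-76726168) had 1028, 1162 and 1097 CPM in control 1, 2 and 4, and 1428, 1770 and 918 CPM in TO 2, 3 and 4. Its neighbour Col6a2 (chr10:76595762-76623630) had 1348, 1436 and 1247 CPM in the controls and 1539, 1610 and 1114 CPM in TO. Col6a3 (chr1:90765923-90843971) had 1093, 1081 and 1154 CPM in the controls and 1058, 1133 and 967 CPM in TO. For Col6a1 and Col6a2 TO 2 and TO 3 lie above the controls and TO 4 below them, the same order as for Col4a1 and Col4a2. The log2 fold changes were 0.32 (-0.14 to 0.78), 0.08 (-0.25 to 0.41) and -0.08 (-0.32 to 0.16). Control 3 had 1755, 1623 and 1068 CPM and TO 1 847, 868 and 799 CPM, and with all 8 libraries the change of Col6a1 was -0.02 and that of Col6a2 -0.13. Within the codes the differences of Col6a1 were 0.30 for TO 2, 0.01 for TO 3 and -0.21 for TO 4. Those of Col6a2 were 0.10, -0.01 and -0.22, and those of Col6a3 -0.03, 0.09 and -0.22.

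Col14a1 (chr15:55307750-55520803), a fibril-associated chain that regulates fibril growth, had 339, 300 and 367 CPM in the controls and 287, 195 and 339 CPM in TO, with 373 in control 3 and 269 in TO 1. The groups overlap, with a log2 fold change of -0.29 (-0.73 to 0.15). It and Col15a1 were the members below the controls of the same code in TO 2, TO 3 and TO 4, but by only -0.06 in TO 2 and TO 4 and by -0.93 in TO 3. The remaining other chains ranged in log2 fold change from -0.41 (Col6a4) to 2.41 (Col10a1), and none had an unadjusted p under 0.05 in the 6 libraries. Transmembrane chains were between -0.01 (Col25a1) and 0.22 (Col13a1).

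A few scarce chains followed single lungs rather than groups, and are named because of their values. Col10a1, the chain of growth plate cartilage that is turning to bone, had 6.69 CPM (231 read pairs) in TO 2 and 0 to 0.682 CPM in the other 7 libraries. Bone markers were also higher in TO 2, at 22.4 CPM, than in every other library but TO 1. Col6a5, a type VI chain, had 20.5 CPM in control 1 and 21.2 CPM in TO 4, 4.94 to 6.95 CPM in the other deep libraries and 0 reads in TO 1. Col17a1, the hemidesmosome collagen of basal keratinocytes and airway basal cells, had 18.4 CPM in control 1, 15.6 CPM in TO 4 and 27.5 CPM (8 read pairs) in TO 1, and 7.35 to 10.1 CPM in the other 5. The 6 markers of stratified epithelium (Krt4, Krt13, Krt6a, Dsg3, Sprr3 and Krtdap) summed to 267 CPM in control 1, 257 in TO 4 and 162 in TO 1, and to 1.65 to 6.22 CPM in the others. In control 1 and TO 4 the sum was mainly Krt4 (149 and 133 CPM) and Krt13 (104 and 106 CPM). In TO 1 it was mainly Krtdap (114 CPM, 33 read pairs), which had 0.0876 CPM in control 1 and 0.284 in TO 4. Krt6a and Dsg3 were highest in these 3 lungs. The part of the markers in the 2 chains was not tested. All 3 of these lungs carry code 3482, as does control 4, which was low in both chains and in the markers.

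Control 3 differed from the other lungs of its group in several chains. It was highest of the deep libraries for 6 of the 43 members and lowest for 9, against 20.8% and 22.9% of all genes tested, so this is not more than for genes at large. Its values differed by the GC content of the exons. The 13 chains at 58% GC or more had a median of -0.65 against the mean of the 6 libraries (log2 scale), and the other chains -0.03. The same medians were between -0.18 and 0.23 in the other 7 libraries for the GC-rich chains. TO 1 was split in the opposite direction, with 0.23 for the GC-rich and -0.37 for the other chains. Over all genes tested the median was -0.51 in TO 1 and -0.04 in control 3. The -0.37 of the other chains in TO 1 is therefore not lower than for genes at large. In the 6 libraries the other chains had medians between -0.09 and 0.19. Neither control 3 nor TO 1 is part of the mean of the 6 libraries. Col18a1, Col27a1 and Col11a2 are among the GC-rich chains that were low in control 3. The part of GC content in these values was not tested.

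**Figure D5:**
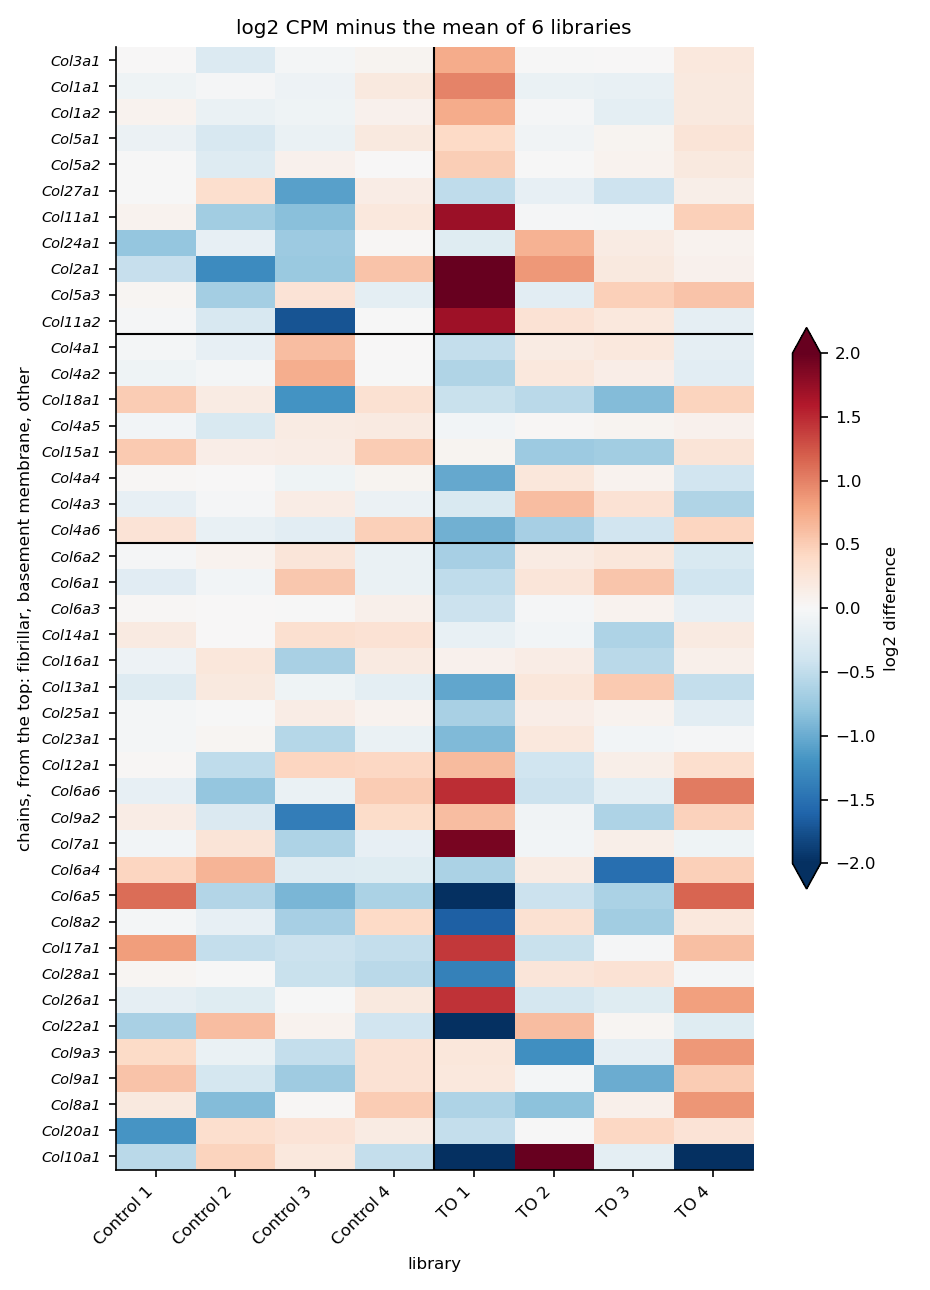
Log2 CPM of the 43 chains tested (rows, by class and by level within a class) in each library (columns), minus the mean of the 6 libraries, from blue (lower) to red (higher), with the colour capped at 2 in either direction. The fibrillar block is mostly red in TO 1, where 9 of 11 chains exceed every other library, as do 20.8% of all genes tested. The basement membrane block is mostly blue there, with a median of -0.47, beside -0.51 over all genes tested. Col10a1 stands out in TO 2.

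Genes that make, cut, cross-link or bind collagens were described from 4 lists of 49 genes, of which 48 were tested. In the 6 libraries 0 were called, and 2 (4.17%) had an unadjusted p under 0.05, beside 5.14% of all genes. The TO and control libraries did not overlap for 3 of the 48 (6.25%), against 10.9% of all genes. TO was higher for 2 of these, Tll1 and Adamts2, and lower for 1, Mrc2. Tll1, a tolloid protease that removes procollagen ends, had 2.72, 4.19 and 4.28 CPM in control 1, 2 and 4, and 9.52, 4.46 and 7.61 CPM in TO 2, 3 and 4, a log2 fold change of 0.95 (unadjusted p = 0.0221, adjusted p = 0.907 by edgeR). All of its TO values lie above those controls, with 3.496 in control 3 and 17.2 in TO 1 (from 5 read pairs). Mrc2, an uptake receptor for collagen, had 290, 346 and 287 CPM in these controls and 245, 214 and 253 CPM in TO, a change of -0.37 (unadjusted p = 0.013, adjusted p = 0.907 by edgeR). Its TO values lie below them, though control 3, at 211 CPM, is lower still and TO 1 had 158 CPM.

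The most abundant gene of each list overlapped between the groups in the 6 libraries. Serpinh1, the collagen chaperone HSP47, had 968, 1140 and 861 CPM in the controls and 1054, 702 and 886 CPM in TO (log2 fold change -0.17). Lox, the cross-linking oxidase, had 901, 969 and 874 CPM in the controls and 1034, 1288 and 751 CPM in TO (0.16), with 2211 CPM in control 3 and 506 CPM, the lowest value, in TO 1. With all 8 libraries its log2 fold change was -0.46, the opposite sign. Itgb1, the shared subunit of the collagen integrins, had 1025, 887 and 984 CPM in the controls and 1024, 945 and 992 CPM in TO (0.03, and -0.20 with all 8 libraries). The values of Fn1 (fibronectin), on which collagen is deposited, were 1956, 1996 and 2072 CPM in the controls and 2020, 1958 and 2040 CPM in TO (-0.0028, and -0.18 with all 8 libraries). By list, folding and modification had 10 genes with a positive and 10 with a negative log2 fold change, and none at an unadjusted p under 0.05. Cleavage and cross-linking had 6 and 6, with 1 at that mark (Tll1), receptors 4 and 4, with 1 (Mrc2), and fibril-binding genes 4 and 4, with none. The median log2 fold change over the 48 was -0.0012. With all 8 libraries the splits were 7 and 13 for folding, 6 and 6 for cleavage and cross-linking, 1 and 7 for receptors and 4 and 4 for fibril-binding genes, which makes 18 and 30 over the 48, with a median of -0.036. Over all genes tested the split was then 10549 and 11996. For genes at 100 CPM or more it was 638 and 1817, with a median of -0.076, so abundant genes at large were mostly negative too.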

How the data were processed

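Whole fetal lungs were measured by mRNA-seq, with 4 control and 4 TO libraries grouped by their titles. The authors made NexteraXT libraries, sequenced 150-bp read pairs and aligned them to GRCm38 with STAR (version not given in the sources used here), and what they deposited is a table for each lung with the number of pairs on every gene, as plain counts that had not been normalized. Counts without regard to strand were used, since 49.9% to 50.1% of pairs fell on 1 strand, and overlapping genes of opposite strands lose shared pairs. Between 9.64% and 14.9% of pairs fell on no gene and were left out. IDs were matched to GENCODE M21 (54487 of 55385 identical with version, 55144 without it).

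The main test was edgeR's quasi-likelihood test (4.0.16, R 4.3.3) of TO against control after TMM scaling. Genes needed 5 reads or more in 3 libraries, with Benjamini-Hochberg adjustment and the threshold of 0.1 that the authors used. DESeq2 1.42.0 and limma-voom (limma 3.58.1) were alternatives. CPM used TMM factors of all 8 libraries, and log2 values for single libraries a prior count of 2. Levels per kilobase used the union of exons. Intervals for single counts are exact Poisson, and a count of 0 was given a limit of 3 reads. Both cover counting error only, as there were no molecular identifiers. Figures were drawn in Python 3.11.15.

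Members and lists were chosen with earlier results of these data known. Values per library were given for the 4 chains highest per kilobase in each class, every member at an unadjusted p under 0.05 in 6 or 8 libraries or called by any tool, all type IV chains and the partner chains of types I and VI. For the lists of other genes, they were given for those at an unadjusted p under 0.05 and the most abundant ones. Other genes were named after their values were seen. Labels do not say that lungs came from separate litters, so p-values measure only the spread between these lungs, which may be technical. The specimen code block was added after the data were seen. In simulated counts with 200 genes changed by a log2 fold of 2, edgeR called 98.9% of those at 10 CPM or more with the 6 libraries (54.5% of all 200), and 13 unchanged genes. No chain at 10 CPM or more changed by that much in the 6 libraries. Smaller changes, specimen codes and GC differences were not simulated, so the share says nothing about changes of the size seen here. Alternatives were other scaling, filters, strands, GC offsets, all 8 libraries, blocks by replicate number and each library left out in turn. Upstream windows are from RefSeq (GRCm38.p6), where 35 members matched.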

Additional observations from a re-analysis of the deposited data

Results flagged for a closer look

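A lung that stood far from the other 3 of its group was found in 9 of 108 groups of 4 libraries examined (8.33%), where chance marks about 1 in 20. The measure was the gap to the nearest lung over the range of the group.

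Control 3 was highest for Col4a2, at 2473 CPM against 1410 to 1487 CPM in the other controls, and for the ratio of Col15a1 to Col18a1, at 1.26 against 0.486 to 0.574. Control 1 was highest for Col6a5, at 20.5 CPM against 4.94 to 6.27, and for Col17a1, at 18.4 CPM against 7.35 to 7.63. It was lowest for Col20a1, a fibril-associated chain, at 2.10 CPM against 5.45 to 6.11. TO 1 was highest for Col7a1, the chain of anchoring fibrils under stratified epithelium, at 68.9 CPM (20 read pairs) against 17.4 to 19.9 in the other TO lungs, and for Col11a2, at 34.4 CPM (10 read pairs) against 9.37 to 13.0. TO 2 was highest for Col10a1, at 6.69 CPM against 0 to 0.413, and TO 3 lowest for Col16a1, a fibril-associated chain, at 116 CPM against 179 to 187. Control 3, with the same specimen code as TO 3, had 107 CPM of Col16a1, the lowest of the controls.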

How the results depend on the processing

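Leaving out each library in turn gave 0 to 2 collagen chain genes at an adjusted p under 0.1, beside 0 to 0.692% of all genes. At an unadjusted p under 0.05 it gave 1 to 10 chains, and 1 to 12 of the collagen-making and collagen-binding genes. The share of all genes at that mark was between 2.76% and 10.7%. Both chains called came from leaving out TO 4. The log2 fold changes then ranged from -0.17 to 0.032 for Col1a1, -0.12 to 0.087 for Col1a2, -0.18 to 0.12 for Col4a4, -0.018 to 0.22 for Col4a5, -0.0073 to 0.23 for Col6a2, -1.10 to -0.54 for Col15a1, -1.02 to -0.28 for Col18a1 and 0.39 to 0.78 for Col24a1.

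At an unadjusted p under 0.05 there were 2 chains at the main setting, 6 with no filter beyond 1 read, 4 with DESeq2, 1 on the first strand, 5 with DESeq2 on all 8 libraries, and 7, 5 and 10 with the specimen code as a block in 6, 7 and 8 libraries. In the same order the shares of all genes were 5.14%, 6.02%, 6.11%, 5.4%, 1.63%, 6.29%, 4.37% and 5.11%. Collagen-making and collagen-binding genes numbered 2 at the main setting, 7 with no filter, 4 with DESeq2, 4 with limma-voom, 4 on the first strand, 7 on the second, and 1 with all 8 libraries or all but TO 1. The share of all genes was 6.23% with limma-voom, 5.33% on the second strand, 2.35% with all 8 libraries and 2.0% with all but TO 1.

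Replicate numbers do not mark a shared litter or day in the labels, so same-numbered lungs were not taken as pairs. Their deviations were correlated at 0.0518, 0.130, 0.157 and 0.0709. Same-numbered lungs also share a specimen code, and these values lie above those of the 10 pairs without a shared code (-0.164 to 0.00452). Control 1 correlated best with TO 4, at 0.0972. With the replicate number as a block, 6 chains (6 libraries), 9 (8 libraries) and 6 (with GC offsets) had an unadjusted p under 0.05, as did 6, 11 and 5 of the collagen-making and collagen-binding genes. The shares of all genes were 5.92%, 4.4% and 5.66%. In the 6 libraries 1 chain was then called, Col15a1, at -0.55 with an adjusted p of 0.0895 by edgeR, where 1.0% of all genes were. Control 1 and TO 3 have no partner there, so that fit rests on the pairs 2 and 4, with 1 residual degree of freedom.

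Of 468 pairs of a gene and an alternative, 412 kept direction and call, 3 gained a call and 53 changed sign, in 8 genes. With all 8 libraries Col1a1 came to 0.30, Col1a2 0.23, Col4a1 -0.18, Col4a2 -0.26, Col6a1 -0.017 and Col6a2 -0.13. In the same order DESeq2 on 8 libraries gave 0.33, 0.25, -0.17, -0.25, -0.0048 and -0.12, the replicate block on 8 gave 0.22, 0.19, -0.18, -0.26, -0.053 and -0.17, and the code block on 8 gave 0.25, 0.20, -0.17, -0.25, -0.052 and -0.16. Without Col6a1, limma-voom on 8 gave 0.082, 0.082, -0.10, -0.16 and -0.063, and the code block without TO 1 gave 0.0062, 0.043, -0.090, -0.16 and -0.060. All libraries but TO 1 gave 0.0094 for Col1a2, -0.065 for Col4a1 and -0.13 for Col4a2. Col1a2 and Col6a2 were 0.11 and -0.028 with the replicate block, 0.099 and -0.017 with GC offsets added, and 0.12 and -0.074 with the code block on 6, where Col1a1 was 0.034. The cause of these changes was not tested. In TO 1 a chain at 10 CPM has only a few read pairs.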
